A study of Bos taurus with 18 samples.

Results

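The nuclear genes for subunits of the respiratory chain and of ATP synthase were followed in bovine cumulus cells while the follicle grew on without FSH. The members were taken by gene symbol: every probe whose platform symbol starts with NDUF, UQCR, COX4, COX5, COX6, COX7, COX8 or ATP5, and the probes of CYC1 and CYCS. This gave 123 probes for 82 genes, among 15216 genes with a symbol on the array. COX4NB met the rule by its letters only, since its current name is EMC8, a gene of a membrane complex of the endoplasmic reticulum, and the other 81 genes code for subunits, assembly factors or the carrier cytochrome c. A filter on dim probes left 80 of the 82 genes for testing. COX6A2 and COX6B2, the isoforms known from muscle and testis, were left out by it and were above background on 0 of 18 arrays in the 20 h channel. UQCRFS1 and COX4I2 were not analysed here.

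Complex I takes electrons from NADH, complex III passes them on to cytochrome c, and complex IV hands them to oxygen. All 3 of these complexes pump protons across the inner mitochondrial membrane, and complex V, the ATP synthase, lets them flow back to make ATP. Cumulus cells are the somatic cells around the oocyte, to which they are joined by gap junctions. They are known for strong glycolysis and for feeding pyruvate to the oocyte, whose own mitochondria carry most of its ATP production.

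The cells came from 6 Holstein cows, 4 years old on average, over 24 collections by ovum pick-up. After removal of the dominant follicle, and 36 h later, each cow received 6 doses of 40 mg FSH spaced 12 h apart over 3 days. The cows then went without FSH for 20, 44, 68 or 92 h, which is called coasting. The follicles used were of 3 to 5 mm at 20 h, of 6 to 8 mm at 44 and 68 h and above 8 mm at 92 h. Against 20 h, and between 92 h and 44 or 68 h, time therefore cannot be told apart from follicle size. Only 44 and 68 h had the same labelled size. All groups, the 20 h group included, had received the same FSH course, and no group without FSH was among the samples. RNA was amplified in 2 rounds, and each of 18 arrays set 1 longer time against 20 h, with 3 replicates per longer time and 2 dye orientations per replicate. The labels do not tell which cows gave which replicate, and p-values then reflect only how far these samples spread. The 3 comparisons share the 20 h condition.

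All values below are log2 ratios of coasted over 20 h, averaged over both dye orientations of a replicate, and given as the mean ± SD of 3 replicates unless stated. Genes were tested with limma over 11044 genes, with an adjusted p of 0.05 as the threshold. Between 26.5 and 68.7% of the gene probes of an array channel were above background. Members were seen more widely: 68 of 80 (85%) were above background in every one of the 36 channels, against 49.4% of all genes tested. In the cumulus and granulosa marker list 13 of 13 genes passed the dim-probe filter, while FOXL2 was dim, seen over background in 6 of 18 channels of 20 h and 0 of 6 of 92 h. Of the 14 oocyte markers 8 passed it, with GDF9, ZP2, ZP4, DAZL, ZAR1 and NLRP5 left out.

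After 92 h of coasting most of these genes were a little lower than after 20 h. Of the 80 members, 63 had a mean below 0, where 50.4% of all genes tested did, and their median was -0.23 against -0.00 for all genes. In bulk RNA, fewer cells of a type and less RNA per cell cannot be told apart. By limma 2 members fell, CYCS and NDUFB6, and 0 rose, where 2.32% of all genes tested passed, 1.08% lower and 1.24% higher. The share of members past the threshold was thus near that of the array as a whole. At an unadjusted p under 0.05, 9 members were lower and 2 higher (8.25% of all genes lower and 9.78% higher). A value below 0 in all 3 replicates was found for 34 members, where 22.5% of all genes showed it, and a value above 0 in all 3 for 4 members, where 23.5% did. By the mean, 12 members were at least 1.5-fold lower (5.41% of all genes) and 1, ATP5MC2, was at least that much higher (4.77%). These fold shares are not like for like, since ratios of dim probes are compressed. Above background in every channel were 85% of members and 49.4% of all genes.

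**Figure D1:**
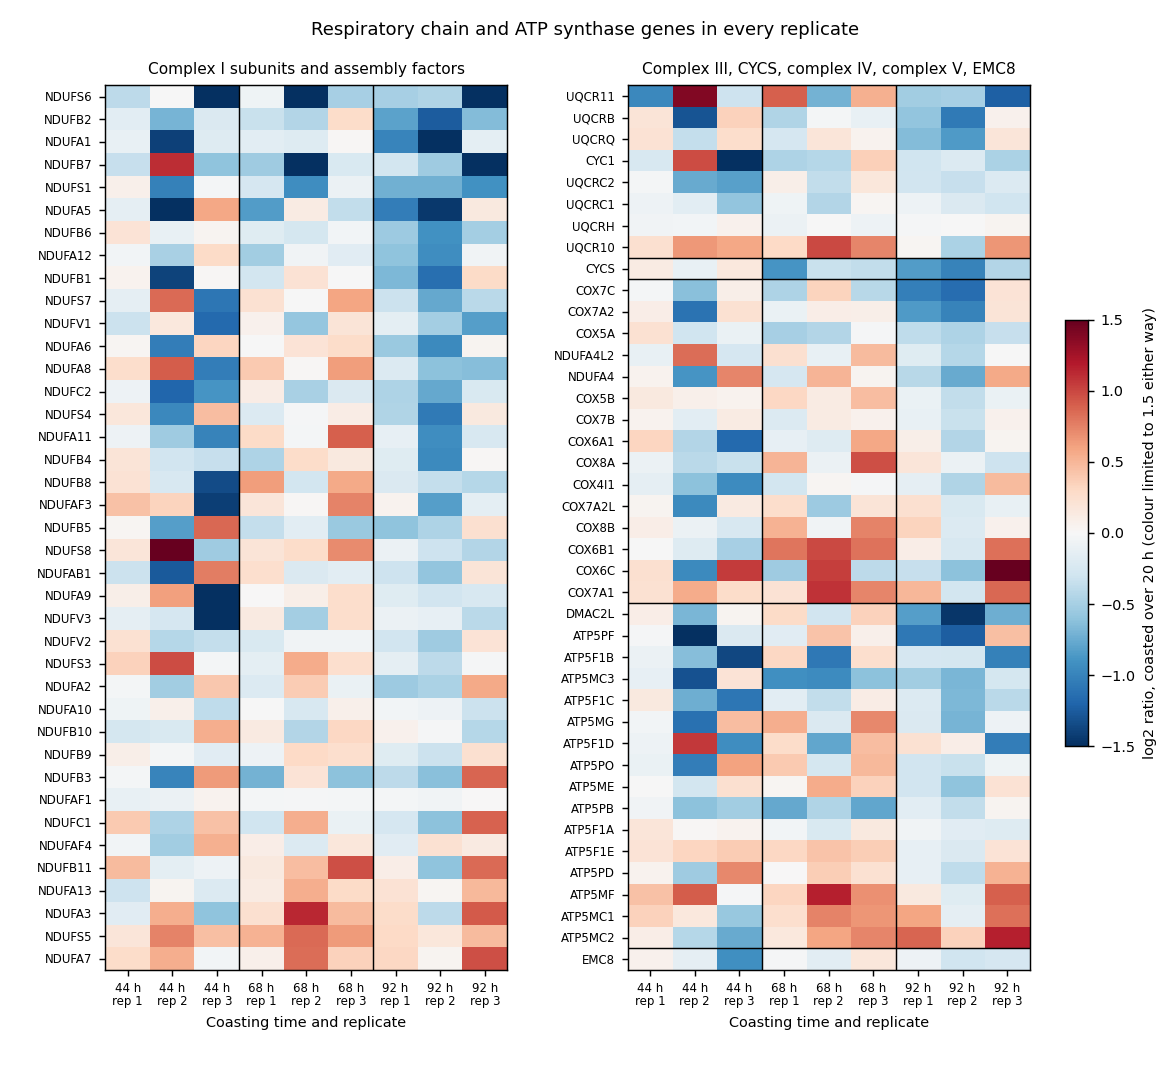
Log2 ratio of coasted over 20 h for 80 member genes (rows, ordered within each complex by the 92 h mean) in each of 9 replicates (columns, 3 per coasting time), with blue for lower and red for higher than 20 h and colours limited to 1.5 either way. At 92 h the first 2 columns are mostly blue, with 62 and 74 genes below 0, and the last holds 39 below 0.

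The replicates at 92 h did not carry this equally. The members' median was -0.19 in replicate 1, -0.46 in replicate 2 and 0.01 in replicate 3, and the number of members below 0 was 62, 74 and 39. Leaving out replicate 1, 2 or 3 gave medians of -0.25, -0.16 and -0.32. In 27 members replicate 3 was above 0 while the other replicates were below 0, which was the case for 7.78% of all genes. These were 13 genes of complex I, 3 of complex III, 6 of complex IV and 5 of complex V. COX6C, a small subunit of complex IV, was the extreme: -0.35 and -0.62 in replicates 1 and 2 and 1.82 in replicate 3. Over the 80 members, replicates 1 and 2 correlated with r = 0.81, replicates 1 and 3 with 0.29 and replicates 2 and 3 with 0.11. Over all 11044 genes the same pairs gave 0.68, 0.58 and 0.42. These correlations are across genes, which are not independent and share the arrays. The median SD of a member at 92 h was 0.36, against 0.14 for all genes tested. At 68 h these were 0.30 and 0.14, and at 44 h 0.52 and 0.22.

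Markers of the cumulus and granulosa cells had the same order of replicate medians. Their median over 13 genes at 92 h was -0.20, -0.93 and 0.01 in replicates 1, 2 and 3. Of the 13, 10 had a mean below 0, 3 above 0, and 0 passed. CDH2, of smallest p in this list, was among those above 0, at 1.83 ± 1.24 (limma, adjusted p = 0.0778). On the 92 h arrays their summed signal was 127038 to 160838 in the 20 h channels, and 73773 to 153144 in the coasted channels. The theca and smooth muscle list had medians of 0.01, 0.51 and -0.02, with sums of 9148 to 13557 in the 20 h and 12902 to 23882 in the 92 h channels. By limma 2 of its 9 tested genes rose, MYH11 by 1.47 ± 0.37 (adjusted p = 0.0120) and PDGFRA by 1.66 ± 0.58 (adjusted p = 0.0437). Of the 9, 4 had a mean below 0, down to -0.48, and DCN was left out as dim. MYH11 itself was dim, seen over background in 8 of 18 channels of 20 h and 6 of 6 of 92 h. Of 7 leukocyte markers tested out of 12, CD68 rose by 0.93 ± 0.51 (limma, adjusted p = 0.0465), with CD3D, CD14, CSF1R, CD163 and TYROBP left out as dim. CD68 was dim as well, seen over background in 15 of 18 channels of 20 h and 6 of 6 of 92 h. The list had a median of 0.05, with 5 means above 0 and 2 below. CXCR4 was at 1.43 ± 0.65 and did not pass (limma, adjusted p = 0.0504), and the means of the others lay between -0.03 and 0.26. The leukocyte sums were 2007 to 2925 in the 20 h channels, against 2359 to 4120 in those of 92 h. The oocyte list, with 8 genes, had a median of 0.01, and its sum of 2571 to 2966 at 20 h overlapped that of 2574 to 3061 at 92 h. The endothelial list had a median of -0.02 over 6 genes and the erythrocyte list 0.03 over 4, and 0 genes of these and the oocyte list passed. Of the erythrocyte genes HBA was at -0.54 ± 0.50 (limma, adjusted p = 0.291), and SLC4A1, AHSP and HBB were at 0.12, 0.08 and -0.02. HBA was above background in 18 of 18 channels of 20 h and 1 of 6 of 92 h. The part of such markers in the members' values was not tested.

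Cytochrome c, the soluble protein that carries electrons from complex III to complex IV and that also triggers apoptosis when it leaves the mitochondrion, is made from CYCS. CYCS stood at -0.84, -1.01 and -0.44 in the replicates at 92 h, all below 0. Its mean fell by 0.76 on the log2 scale (SD 0.29; limma, adjusted p = 0.0442). At 68 h it was -0.89, -0.34 and -0.36, again all below 0, with a mean of -0.53 ± 0.31 that did not pass (limma, adjusted p = 0.255). At 44 h the values of 0.12, -0.12 and 0.15 lay on both sides of 0. The 92 h call rested on every replicate of that time: without replicate 1, 2 or 3 the adjusted p was 0.219, 0.243 and 0.0593 in limma. It was also lost when replicate 1 of 44 h (0.0746) or replicate 2 or 3 of 68 h (0.0538 and 0.0777) was left out. With the 92 h sample in Cy5 CYCS was at -0.46 and did not pass (adjusted p = 0.120), and with it in Cy3 it was at -1.07. The call was also lost in the authors' deposited table of ratios (-0.75, adjusted p = 0.0944 by limma), with median centring (0.123), without the dim-probe filter (0.0612), with a trended and robust prior (0.0896) and with the 92 h replicates alone (0.0921).

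Complex I is the largest of the complexes, with a matrix arm that holds the redox centres and a membrane arm that pumps protons. Of its 39 members tested, 32 were below 0 at 92 h (50.4% of all genes), with a median of -0.28. In 18 all 3 replicates were below 0 (22.5% of all genes). Of the 39, 1 passed (2.32% of all genes): NDUFB6, an accessory subunit of the membrane arm. NDUFB6 was -0.54, -0.91 and -0.51 at 92 h, all below 0, and it fell by 0.65 (SD 0.22; limma, adjusted p = 0.0267). At 68 h it was -0.18, -0.27 and -0.04, and at 44 h 0.20, -0.11 and 0.04, so the 92 h values lay below all of those at the earlier times. A dimmer probe of NDUFB6 gave -0.38 ± 0.43 at 92 h, and with the mean of both probes the call was lost (-0.51, limma, adjusted p = 0.0676). Without 92 h replicate 1, 2 or 3 its adjusted p was 0.141, 0.118 and 0.0588 in limma, and without 68 h replicate 1 or 3 it was 0.0543 and 0.0509. With median centring it was 0.0711, with a trended and robust prior 0.0763 and with the 92 h replicates alone 0.0854. The median of complex I was -0.18 without 92 h replicate 2, -0.37 without replicate 1 and -0.41 without replicate 3.

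The catalytic core of complex I was lower in every tested member at 92 h. All 6 core genes had a mean below 0 (50.4% of all genes), with a median of -0.38. In 5 all 3 replicates were below 0 (22.5% of all genes), but 0 of the 6 passed. NDUFS1, the large iron-sulphur subunit, was -0.72, -0.72 and -0.91, all below 0, with a mean of -0.78 ± 0.11 (limma, adjusted p = 0.132). At 68 h it was -0.25, -0.93 and -0.09 and at 44 h 0.07, -1.01 and -0.03, so at each of these times the lowest value was that of replicate 2. The other NDUFS1 probes gave -0.76 and -0.46 at 92 h. With the 92 h replicates alone in the fit, NDUFS1 was the 1 member that passed. NDUFV1, which binds the flavin that takes up electrons from NADH, was -0.14, -0.51 and -0.83, all below 0 (mean -0.49 ± 0.35). NDUFV2, its iron-sulphur partner, was -0.29, -0.53 and 0.20 (mean -0.21 ± 0.37), with replicate 3 on the other side of 0. The remaining core genes, NDUFS3, NDUFS7 and NDUFS8, had means from -0.50 to -0.18 and were below 0 in all replicates.

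The core genes had unlike values in the dye orientations. Their median at 92 h was 0.05 on the arrays with the 92 h sample in Cy3, with 3 of 6 genes below 0, and -0.61 on those with it in Cy5, with 6 of 6 below 0. For all complex I members these medians were -0.07 and -0.52.

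Among the 30 accessory subunits of complex I, 24 were below 0 at 92 h (50.4% of all genes), with a median of -0.31. In 13 all replicates were below 0 (22.5% of all genes). NDUFB2, in the membrane arm, was -0.81, -1.25 and -0.65, all below 0, with a mean of -0.90 ± 0.31 that missed the threshold (limma, adjusted p = 0.0545). At the earlier times NDUFB2 was -0.34, -0.44 and 0.27 (68 h) and -0.16, -0.70 and -0.21 (44 h). NDUFA1, a membrane-anchored subunit, was -0.99, -1.53 and -0.15 at 92 h (mean -0.89 ± 0.70, limma, adjusted p = 0.187), with replicate 3 close to 0. NDUFS6, a zinc-binding subunit, had the lowest mean of the complex, -0.96 ± 0.84, which came from -1.94 in replicate 3 against -0.50 and -0.45. NDUFB8, whose protein is often used to gauge complex I by immunoblot, was -0.21, -0.36 and -0.43 (mean -0.33 ± 0.11, limma, adjusted p = 0.648). NDUFC2, another membrane subunit, was -0.47, -0.76 and -0.22 at 92 h. It had its lowest mean at 44 h, -0.72 ± 0.58, with -0.08, -1.19 and -0.89 (limma, adjusted p = 0.334).

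A few accessory genes of complex I pointed upward. NDUFS5, on the intermembrane-space side of the complex, was above 0 in 9 of 9 values: 0.18, 0.75 and 0.45 at 44 h, 0.53, 0.85 and 0.64 at 68 h and 0.30, 0.17 and 0.48 at 92 h. Its 68 h mean of 0.67 ± 0.17 had the smallest adjusted p of any member at that time, 0.125 by limma, and did not pass. In the F-test of limma over the 3 times NDUFS5 came closest among members (adjusted p = 0.0617), and 0 members passed against 74 genes of the array. NDUFA7 was 0.31, 0.05 and 0.96 at 92 h, all above 0 (mean 0.44 ± 0.47, limma, adjusted p = 0.329). The 3 assembly factors whose symbols begin with NDUFAF had means near 0: NDUFAF1 -0.02 ± 0.03, NDUFAF4 0.06 ± 0.21 and NDUFAF3 -0.30 ± 0.46.

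**Figure D2:**
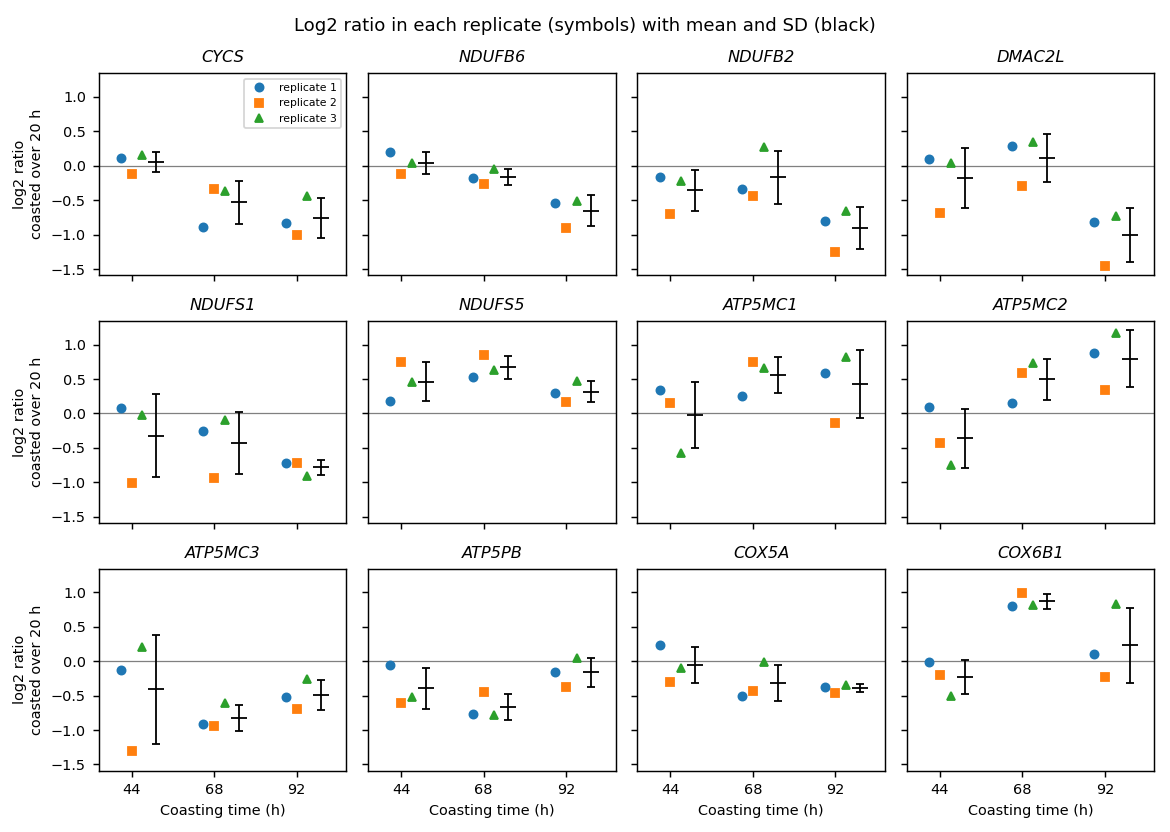
Log2 ratio of coasted over 20 h (y axis) at 44, 68 and 92 h (x axis) for 12 member genes, with 1 symbol per replicate and the mean with its SD in black. CYCS, NDUFB6, NDUFB2, DMAC2L, NDUFS1, ATP5MC3 and COX5A have all 3 values below 0 at 92 h, and NDUFS5 and ATP5MC2 have all 3 above 0.

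In complex III, 6 of 8 members were below 0 at 92 h (50.4% of all genes), with a median of -0.30, and 0 passed (2.32%). CYC1, the cytochrome that hands electrons to cytochrome c, was -0.30, -0.20 and -0.48 (mean -0.33 ± 0.14, limma, adjusted p = 0.804), all below 0. UQCRC2, a core protein of the matrix side, was -0.29, -0.35 and -0.20 at 92 h (mean -0.28 ± 0.07). It had been lower at 44 h, at -0.03, -0.75 and -0.81 (mean -0.53 ± 0.43, limma, adjusted p = 0.347). UQCRC1, the other core protein, had 2 kept probes, which disagreed. The brighter one was not well above background on any of the 6 arrays in the 92 h channel and was so on 4 of 6 in their 20 h channel. By this probe the signal was at least 1.13-fold lower at 92 h, with measured channel means of 8.04 at 20 h and 7.85 at 92 h on the log2 intensity scale (limma, adjusted p = 0.473 for its ratio). The other probe, above background on 3 of 6 arrays in the 92 h channel, gave 0.12 ± 0.18, so the gene had no settled direction.

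UQCR11, a small subunit, had the lowest mean of complex III, -0.75 ± 0.41, from -0.52, -0.50 and -1.23. UQCRB, which lies near the ubiquinone site, and UQCRQ, its neighbour, were below 0 in replicates 1 and 2 and above 0 in replicate 3. UQCRB was -0.60, -1.06 and 0.06 and UQCRQ -0.65, -0.85 and 0.19. UQCR10 was 0.03, -0.47 and 0.66 at 92 h after 0.30, 0.99 and 0.74 at 68 h, where all 3 were above 0 (mean 0.67 ± 0.35, limma, adjusted p = 0.323). UQCRH, the hinge protein, was within 0.05 of 0 in every 92 h replicate (mean 0.01 ± 0.03), with a dim probe that cleared background in 14 of 18 channels of 20 h and 5 of 6 of 92 h.

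Complex IV had the median closest to 0 at 92 h. Of 15 members 3 (20%) were below 0 in all replicates, near the 22.5% of all genes. By the mean 11 were below 0 (50.4% of all genes), 0 passed (2.32%), and the median was -0.10. That median was 0.07 without replicate 2, -0.17 without replicate 1 and -0.23 without replicate 3. COX5A, a matrix-side subunit, was -0.38, -0.46 and -0.34, all below 0 and close together (mean -0.39 ± 0.06, limma, adjusted p = 0.135). Its 4 probes did not tell the same story: the others gave -0.31, -0.04 and 0.06 at 92 h. COX5B, a zinc-binding subunit, was -0.10, -0.37 and -0.10 at 92 h (mean -0.19 ± 0.16, limma, adjusted p = 0.246) and 0.31, 0.13 and 0.46 at 68 h, so the values of these times did not overlap. The difference of 92 from 68 h for COX5B, -0.49, did not pass in limma (adjusted p = 0.642).

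COX7C and COX7A2, small membrane subunits, were among the lowest of complex IV, and both by replicates 1 and 2. COX7C was -1.03, -1.14 and 0.21 (mean -0.65 ± 0.75) and COX7A2 -0.85, -1.0 and 0.19 (mean -0.55 ± 0.65). COX7A1, the isoform known from heart and skeletal muscle, was 0.50, -0.28 and 0.86 (mean 0.36 ± 0.58), so it lay above COX7A2 in every replicate. COX7A2L, which links complexes into supercomplexes, was 0.24, -0.23 and -0.11 (mean -0.03 ± 0.25). NDUFA4, once counted to complex I and now a subunit of complex IV, was -0.42, -0.76 and 0.57 (mean -0.20 ± 0.69), and its relative NDUFA4L2 was -0.18, -0.43 and -0.01 (mean -0.21 ± 0.21). COX4I1, the general isoform of the regulatory subunit, was -0.13, -0.45 and 0.48 at 92 h and -0.14, -0.62 and -0.94 at 44 h (44 h mean -0.56 ± 0.40, limma, adjusted p = 0.412). COX6A1 was 0.09, -0.43 and 0.04 at 92 h (mean -0.10 ± 0.29).

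COX6B1, which faces the intermembrane space next to cytochrome c, had its highest values at 68 h. There it was 0.80, 0.99 and 0.81, all above the 44 h values of -0.01, -0.20 and -0.50. The 68 h mean of 0.87 ± 0.11 was the highest of all members at that time and did not pass (limma, adjusted p = 0.179), nor did its difference from 44 h of 1.10 (limma, adjusted p = 0.50). At 92 h COX6B1 was 0.10, -0.24 and 0.83, with only replicate 3 in the range of 68 h.

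In complex V, 12 of 16 members were below 0 at 92 h (50.4% of all genes), and 0 passed (2.32%). In 7 all replicates were below 0 (22.5% of all genes), and the complex had a median of -0.23. The median was -0.14 without 92 h replicate 2. The 5 subunits of the F1 head were all below 0, with a median of -0.24. ATP5F1A, the alpha subunit, was -0.06, -0.17 and -0.19 (mean -0.14 ± 0.07). ATP5F1B, the catalytic beta subunit, was -0.25, -0.26 and -1.01 (mean -0.51 ± 0.44), and ATP5F1C, the gamma subunit that turns inside the head, was -0.20, -0.68 and -0.41 (mean -0.43 ± 0.24). Each of these was below 0 in all replicates, with limma adjusted p-values of 0.370, 0.508 and 0.373. ATP5F1E, the small epsilon subunit, was above 0 in every replicate at 44 h (0.20, 0.32 and 0.38) and at 68 h (0.31, 0.42 and 0.37) and at -0.13, -0.21 and 0.21 at 92 h. Its means of 0.30 ± 0.09 at 44 h and 0.37 ± 0.06 at 68 h did not pass (limma, adjusted p = 0.289 and 0.176).

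DMAC2L, listed on the array as ATP5S and known as coupling factor B, had the lowest mean of all 80 members. It was -0.82, -1.45 and -0.73 at 92 h, all below 0 (mean -1.0 ± 0.40), and missed the threshold (limma, adjusted p = 0.0629). Its other probes gave -0.72 and -0.47. At 68 h it was 0.29, -0.29 and 0.34, so its 92 h values lay below all of these. The difference between these times, -1.12, did not pass in limma (adjusted p = 0.723).

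The c subunit of the membrane rotor is made from 3 genes with the same mature protein, and they took different courses. ATP5MC2 was 0.88, 0.34 and 1.16 at 92 h, all above 0, with the highest mean of all members, 0.79 ± 0.42 (limma, adjusted p = 0.0971). At 68 h it was 0.16, 0.59 and 0.73 and at 44 h 0.09, -0.43 and -0.75. ATP5MC3 was -0.52, -0.69 and -0.26 at 92 h (mean -0.49 ± 0.22, limma, adjusted p = 0.385) and -0.92, -0.94 and -0.61 at 68 h, with a mean of -0.82 ± 0.19 there (limma, adjusted p = 0.315). ATP5MC3 and ATP5MC2 therefore did not overlap at 68 or 92 h, but 0 of their shifts passed. ATP5MC1 was 0.59, -0.13 and 0.82 at 92 h (mean 0.43 ± 0.50), and its probes disagreed, with 0.28 and -0.25 from the dimmer ones. Whether a probe also bound RNA of a sister gene was not tested.

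Of the other membrane and stalk subunits, ATP5PB, the b subunit of the outer stalk, was lowest at 68 h. It was -0.77, -0.45 and -0.78 there, all below 0 (mean -0.66 ± 0.19, limma, adjusted p = 0.166), and -0.16, -0.37 and 0.04 at 92 h. ATP5PF, coupling factor F6 of that stalk, was -1.07, -1.23 and 0.45 at 92 h, a further case of replicate 3 on the other side (mean -0.62 ± 0.93). At 68 h, 8 of the 10 membrane and stalk genes had means above 0 and 2 below, where 50.8% of all genes were below 0. Their median was 0.26.

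**Figure D3:**
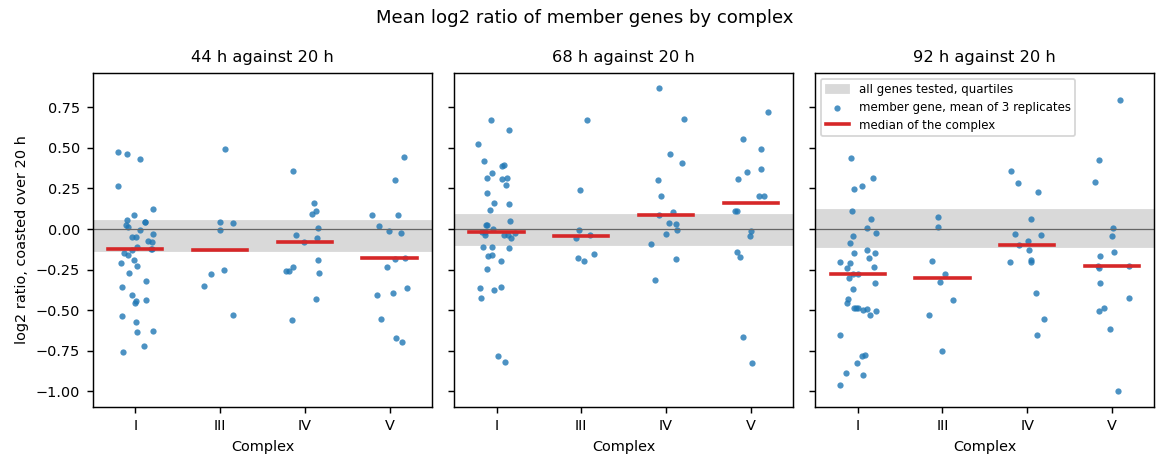
Mean log2 ratio of coasted over 20 h (y axis) of each member gene, by complex (x axis) and coasting time (panels), with the median of each complex as a red bar and the quartiles of all 11044 genes as a grey band. At 92 h the medians of complexes I, III, IV and V are -0.28, -0.30, -0.10 and -0.23, and at 68 h they are -0.02, -0.05, 0.09 and 0.16.

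At 68 h the members' median was close to 0. Of 80 members 40 were below 0, where 50.8% of all genes were, and the median was 0.01. It lay between -0.03 without 68 h replicate 3 and 0.10 without replicate 1, so it had no settled direction. Complex IV had a median of 0.09 and complex V of 0.16, with 10 of 15 and 10 of 16 members above 0, and complexes I and III had medians of -0.02 and -0.05. By limma 0 members passed, as did 0.00% of all genes. At an unadjusted p under 0.05, 4 members were lower and 12 higher, beside 5.03% of all genes lower and 5.99% higher. The 12 higher were NDUFA13, NDUFS5, UQCR10, COX5B, COX6B1, COX7A1, COX8A, COX8B, ATP5F1E, ATP5MC1, ATP5MC2 and ATP5MF, and the 4 lower were CYCS, COX5A, ATP5MC3 and ATP5PB. In 14 members all 3 values were below 0 (21.1% of all genes) and in 19 above 0 (21.8%).

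At 44 h the members' median was below 0, and its sign turned without replicate 2. Of 80 members 55 were below 0 (51.7% of all genes) and the median was -0.13, with replicate medians of 0.03, -0.28 and -0.06. Without replicate 2 the median was 0.02, and without replicate 1 it was -0.20. By limma 0 members passed, as did 0.00% of all genes, and at an unadjusted p under 0.05 there were 5 lower and 2 higher members (5.26% of all genes lower and 4.31% higher). The 5 lower were NDUFC2, UQCRC2, COX4I1, ATP5F1C and ATP5PB, and the 2 higher NDUFS5 and ATP5F1E. In 14 members all 3 values were below 0 (12.9% of all genes) and in 6 above 0 (12.7%).

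Set against each other through the shared 20 h condition, the longer times gave no member past the threshold. At 92 h 69 of 80 members were lower than at 68 h (51.7% of all genes), with a median difference of -0.32, and 7 were lower and 1 higher at an unadjusted p under 0.05 (2.06% of all genes lower and 3.88% higher). The smallest adjusted p of a member in this limma comparison was 0.642, for COX5B. From 44 to 92 h, 48 members were lower (49.9% of all genes), with a median difference of -0.09 and a smallest adjusted p of 0.230, for NDUFB6 at -0.70. There 5 members were lower and 2 higher at an unadjusted p under 0.05 (2.61% of all genes lower and 5.15% higher). From 44 to 68 h, 21 members were lower (46.7% of all genes), with a median difference of 0.19 and a smallest adjusted p of 0.50, for COX6B1. There 1 member was lower and 5 were higher at an unadjusted p under 0.05 (2.77% of all genes lower and 2.63% higher). In these 3 comparisons 0.00% of all genes passed. The lowest of the 3 times was 92 h for 46 members, 44 h for 28 and 68 h for 6. Of all genes 34.1% were lowest at 92 h, 36.1% at 44 h and 29.9% at 68 h, so the 44 h count was near the share of the array.

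The dye orientations, which at 44 and 92 h lay on different slides, gave unlike sizes. At 92 h the members' median was -0.20 with the coasted sample in Cy3 and -0.36 with it in Cy5, and the array medians ran from -0.33 to 0.06 and from -0.59 to -0.05. Both orientations were below 0 for 46 members, where 26.7% of all genes were. At 68 h the medians were 0.14 and -0.01, and at 44 h -0.06 and -0.23. The members' Cy5 median was below their Cy3 median of the same replicate in 9 of 9 replicates. The medians of all genes tested had the same order in every replicate, with smaller gaps. At 92 h they were -0.0098 with the coasted sample in Cy5 and -0.00077 with it in Cy3. Of 2 slides that held both 44 and 68 h arrays, each had 3 arrays of 44 h and 1 of 68 h. With the coasted sample in Cy3, the members' array medians averaged -0.01 at 44 h, and the 68 h array was at 0.22. With it in Cy5 these values were -0.21 and 0.08. On the slide that held both orientations of 68 h replicates 1 and 2 the 4 array medians averaged -0.02. At 92 h slide and dye orientation cannot be told apart.

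**Figure D4:**
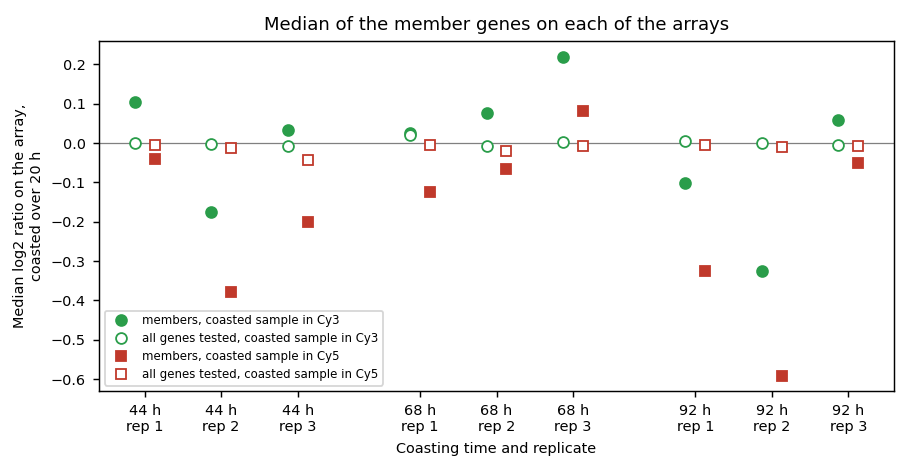
Median log2 ratio of coasted over 20 h on each of 18 arrays (y axis) for the 80 members (filled) and all genes tested (open), by coasting time and replicate (x axis) and by the dye of the coasted sample (green circles Cy3, red squares Cy5). Within each dye the members lie lowest on the array of 92 h replicate 2. For the members and for all genes tested, the Cy5 value is below the Cy3 value in each replicate.

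Other genes of mitochondria, taken from lists, had list medians from -0.45 to 0.03 at 92 h. Of all genes tested, 50.4% were below 0 and 2.32% passed. In the citric acid cycle and pyruvate dehydrogenase list 13 of 15 tested genes were below 0, with a median of -0.45 and replicate medians of -0.48, -0.34 and -0.41, so replicate 3 did not stand apart there. In this list 2 genes fell, PDHB (-0.45 ± 0.03, limma, adjusted p = 0.0120) and DLAT (-0.56 ± 0.07, limma, adjusted p = 0.0304), both parts of the pyruvate dehydrogenase complex that makes acetyl-CoA. Of 74 mitochondrial ribosomal protein genes 55 were below 0, with a median of -0.15. Their replicate medians of -0.16, -0.28 and 0.02 had the same order as those of the members, with 55, 59 and 35 genes below 0. The carrier and porin list given below had this order too, at -0.09, -0.30 and 0.06, while the other mitochondrial lists did not. MRPS22, MRPS23 and MRPS27 fell (-0.47, -0.85 and -0.57) and MRPL10 rose (0.44) by limma, with adjusted p-values of 0.0131, 0.0263, 0.0349 and 0.0364.

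Complex II, which feeds electrons from succinate into the chain, had 5 of 7 genes below 0, a median of -0.06 and 0 past the threshold. Its genes of smallest p were SDHAF3 at 0.14 and SDHAF2 at -0.38. Among 30 assembly factors outside the symbol rule 23 were below 0 (median -0.11), and 1 fell, TMEM126A, a complex I assembly factor (-0.70 ± 0.20, limma, adjusted p = 0.0435). OXA1L, which inserts proteins into the inner membrane, stood at 1.23 ± 0.14 (limma, adjusted p = 0.0656). Of 12 coenzyme Q genes 8 were below 0 (median -0.14) and 0 passed, with PDSS1 at -1.15 and COQ7 at -0.52.

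Of 9 carrier and porin genes 6 were below 0 (median -0.12), and 1 rose, SLC25A5, an ATP/ADP exchanger (0.69 ± 0.32, limma, adjusted p = 0.0311), while VDAC1, the outer membrane pore, stood at -0.92 ± 0.19 (limma, adjusted p = 0.0562). Of 14 genes for import and protein quality 7 were below 0 (median -0.02), and TIMM23, the inner membrane import channel, fell (-0.77 ± 0.15, limma, adjusted p = 0.0352), with TIMM44 at -0.12. Of 13 regulators of mitochondrial biogenesis 6 were below 0 (median 0.03) and 0 passed. Among them TFAM, which packs and transcribes mitochondrial DNA, was not well above background on any of 6 arrays at 92 h, and SSBP1 was at -0.44. The mitochondrially encoded subunits were not analysed here. Of the 12 genes called from these lists and the marker lists, 0 passed in limma without 92 h replicate 1, 1 (PDHB) without 92 h replicate 2 and 5 without 92 h replicate 3. The number was 4 without replicate 1 of 44 h or replicate 1 or 3 of 68 h, 10 without replicate 2 of 68 h, and 12 without replicate 2 or 3 of 44 h.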

How the data were processed

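Per the file headers, the scanner files give, for Cy3 and Cy5, mean spot intensity and mean local background intensity, not normalized. The authors also deposited a table of log2 ratios, 1 column per array. Compared with the scanner files, these ratios run as Cy5 over Cy3 (r of 0.68 to 0.83), with column medians between -0.04 and 0.02. Its background correction, normalization and exact scale stay unknown, and it served as an alternative only. How the authors processed the images is not given in the sources used here.

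Each array had 45220 spots, with 43794 gene probes and 153 negative controls. Intensities were background-corrected with normexp (offset 50), normalized within arrays by loess with control spots at weight 0, and turned to coasted over 20 h. Arrays of the same time and number in opposite dye orientations were taken as 1 replicate and averaged, though the labels do not say so outright. A probe was kept when, net of local background, it lay above the negative controls' mean by over 2 of their SD on at least 50% of the arrays of at least 1 coasting time, which left 27381 probes, 12635 of them without a symbol. The brightest kept probe stood for a gene. Symbols came from the platform annotation and were updated for 19 members. A marker list's summed signal is the sum of its probes' channel intensities after loess and Aquantile scaling. A change shared by most genes of an array would be removed by loess, and ratios of dim probes are compressed. The brighter UQCRC1 probe, not above background at 92 h, is given as a bound: its 20 h mean against a 92 h mean in which each array contributes its own signal or, if larger, the dimmest signal that counts as above background.

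Genes were tested in limma 3.58.1 (R 4.3.3; lmFit, then eBayes), 1 coefficient per time, 6 residual and 1.13 prior degrees of freedom, two-sided, with Benjamini-Hochberg adjustment over 11044 genes. Values that share 20 h RNA were treated as independent. The labels do not say that replicate numbers mark shared animals. Deviations from the group mean correlated across genes between same-numbered values of 44 and 92 h with r of 0.36, 0.26 and 0.24, and between pairs with 68 h with r from -0.35 to -0.03. The number of arrays limits the precision. The script was tested on simulated data. The members and all lists were chosen with earlier results of these data known. Genes were named by rule: those of smallest p and the extremes of each complex at 92 h, the 3 of smallest p at 68 and 44 h, fixed subunits and isoform families, and the 2 of smallest p per list. COX8A, COX8B, NDUFA13, ATP5MF, the other core genes of complex I, and list genes past the threshold beyond those 2 were named after their values were seen. Alternatives covered background correction, normalization, filter, probe choice, dye, value table, variance prior, samples, slide, replicate number and leaving out each replicate.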

Additional observations from a re-analysis of the deposited data

How the results depend on the processing

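The members' median at 92 h stayed below 0 under every alternative run, from -0.36 (coasted sample in Cy5 only) to -0.16 (without 92 h replicate 2). At 68 h it was 0.14 with the coasted sample in Cy3 only and from -0.03 to 0.10 when a replicate was left out, and at 44 h it was -0.30 with median centring and from -0.20 to 0.02 when a replicate was left out. The count of members past the threshold at 92 h, 2 as reported, was 4 without background correction, 10 from Cy3 arrays only, 1 without the dim-probe filter, with the mean of a gene's probes, or with only the replicates of the times compared, and 0 with median centring or a trended and robust prior. It was 0 without 68 h replicate 3 or any 92 h replicate, 1 without 44 h replicate 1 or 68 h replicate 1 or 2, and 5 without 44 h replicate 2, a range of 0 to 5. With the slide as a random block over single arrays, which counts both orientations of a replicate separately (consensus correlation -0.25), it was 46, with 15 at 68 h, 36 at 44 h, and 13, 23 and 4 for 92 against 68 h, 92 against 44 h and 68 against 44 h. At 68 h 16 members passed from Cy3 arrays only. With the replicate block 3 members passed at 92 h, NDUFB6, NDUFB2 (adjusted p = 0.0383) and DMAC2L (0.0163), and CYCS did not (0.0683). Over the whole array median centring gave 55 lower and 13 higher genes at 92 h, against 119 and 137. Without background correction these counts were 190 and 269, and from Cy3 arrays only 594 and 895. At 68 h Cy3 arrays alone gave 805 lower and 1017 higher genes, against 0 and 0. In these settings the member counts thus moved with those of the array. Array-wide counts for the other settings are not given here. The cause of these differences was not tested.

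The sign at 92 h turned for some genes. From Cy3 arrays only the log2 ratio was 0.12 for ATP5F1E and COX4I1, 0.30 for COX6A1, 0.25 for NDUFAF3, -0.027 for NDUFAF4, 0.11 for NDUFB8 and NDUFV2 and -0.078 for UQCRH. From Cy5 arrays only it was 0.092 for ATP5F1A, 0.12 for ATP5PB, -0.024 for COX6C, 0.22 for COX7A2L and -0.19 for NDUFA7. The deposited value table gave 0.021 for COX7A2L, 0.052 for NDUFAF1 and -0.011 for UQCR10, and median centring -0.035 for UQCR10 and -0.0041 for UQCRH. When a replicate was left out, the range was -0.17 to 0.039 for ATP5F1E, -0.29 to 0.17 for COX4I1, -0.20 to 0.065 for COX6A1, -0.068 to 0.47 for COX6B1, -0.48 to 0.73 for COX6C, -0.17 to 0.067 for COX7A2L, -0.59 to 0.077 for NDUFA4, -0.017 to 0.18 for NDUFAF4, -0.22 to 0.34 for UQCR10 and -0.0065 to 0.023 for UQCRH. Over 45 named genes and all alternatives, 803 values kept direction and side of the threshold, 45 crossed to pass, 22 no longer passed and 30 changed sign. Most of the 803 belonged to genes that had not passed and stayed so, which does not measure how firm the calls are. Only CYCS and NDUFB6 had passed, so all 22 losses were theirs. They passed in 7 and 11 of 20 alternatives. Of the 45 that crossed to pass, 29 came with the slide as a random block. Follicle size and coasting time moved together, 3 replicates per time limit the precision, and ratios of dim probes are compressed.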

Other observations

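Of the 80 members, 28 had more than 1 kept probe, and for 6 of these the probes had opposite signs at 92 h: ATP5MC1 (-0.25 to 0.43), ATP5PD (-0.30 to 0.01), COX5A (-0.39 to 0.06), NDUFS7 (-0.51 to 0.06), NDUFV3 (-0.21 to 0.03) and UQCRC1 (-0.19 to 0.12). These genes were picked for that disagreement. For the other 22 genes all kept probes pointed the same way. Among them NDUFA1, an accessory subunit of complex I, had -0.89 and -0.77 from its probes, and COX7A2 had -0.55 and -0.46.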
